A study of Tetranychus cinnabarinus with 8 samples.

Results

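Curcumin is a plant polyphenol with acaricidal activity, and the genes described here, in mites sprayed with it, carry names from nerve signaling. Their role in nerve signaling was not tested. They are tetur22g02010, which the study names as the precursor of the neuropeptide SIFa, tetur05g08080, named as similar to gamma-aminobutyric acid (GABA), and tetur453g00010, named as a neuromedin-K receptor. They were taken by identifier and name, and are 3 of 15764 gene models that had reads in at least 1 library. All 3 passed the filter on low counts that left 12227 genes to be tested. The study had picked them from these same libraries for a difference between curcumin and solvent, the SIFa precursor at 48 h posttreatment, the receptor gene at 24 h and the GABA-like gene at both. Their counts and directions are therefore no independent evidence.

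Every library came from 2-day-old female adults of a susceptible strain of Tetranychus cinnabarinus, the carmine spider mite, reared on cowpea. Solvent-treated mites were sprayed with water that held a detergent and acetone, and curcumin-treated mites with the same solution plus curcumin at 2.64 mg/mL. This dose was chosen as the median lethal concentration. Mites were collected at 24 h or 48 h posttreatment, with 2 biological replicates in each of the 4 groups and 8 libraries in all. Each replicate pooled many mites from several dishes, and only live mites were collected, so the mites that curcumin had killed were not measured. The methods name no dissection, so RNA of nerve cells was mixed with RNA of the rest of the body. In such samples, fewer cells of a type and less RNA per cell cannot be told apart. Vitellogenin 1, the yolk protein precursor of females, had between 26.6 and 360.2 reads in the 8 libraries. Nerve cell markers were not analysed here.

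SIFamides are short amidated neuropeptides of arthropods that are cut from a precursor protein, and in Drosophila they are made by a small set of brain neurons and act on feeding, sleep and courtship through a G protein-coupled receptor. GABA is the chief inhibitory transmitter of arthropod nerve cells, and the chloride channel that it opens is the target of several classes of acaricides and insecticides. GABA is a small metabolite that no gene encodes, so the name "similar to gamma-aminobutyric acid" appears cut short and does not tell whether tetur05g08080 makes a receptor, a transporter or an enzyme. The study listed that gene under terms for transmembrane transport, metal ion binding and membrane, and under the pathway of the serotonergic synapse. Neuromedin-K is a mammalian peptide of the tachykinin family, also called neurokinin B, and its receptor is a G protein-coupled receptor. Tachykinin peptides and receptors of the same kind are known in insects. The study listed tetur453g00010 under cell surface receptor signaling.

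The study designed primers for quantitative PCR of the GABA-like gene and the receptor gene. They are shown 5′ to 3′, and they are linked to each identifier by the names of the primers alone. No part of them is singled out, so no letter is in capitals.
tetur05g08080 forward: caacgatttggaatgggaaa
tetur05g08080 reverse: gttttgctggtggtgcaata
tetur453g00010 forward: gctctctgttggcttccatt
tetur453g00010 reverse: cgcgatgaatcagatgaaat
Each primer is 20 bases long, with a GC content of 40% and 45% for the GABA-like gene and of 50% and 40% for the receptor gene. The places of the primers on the genome were not analysed here.

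The level of a gene is given as the estimated number of reads and as the RPKM, which divides the reads by the length of the gene model and by the reads of the library. The CPM divides the reads by the reads of the library alone. Between 8033325 and 8617973 reads were estimated on genes in a library. All 3 gene models are short. The model of the SIFa precursor has 180 bp, that of the GABA-like gene 222 bp and that of the receptor gene 243 bp, against a median of 1191 bp over all listed models. At 48 h, models as short as 132 and 131 bp had reads after curcumin, whereas the 6 other libraries had none under 140 bp. Models longer than this limit in every library and up to 250 bp, 538 genes in all, had a median log2 fold change of -0.04 after curcumin at 24 h and of 0.06 at 48 h, against -0.01 and 0.00 over all genes.

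The levels of the 3 genes over the 4 groups followed different orders. The SIFa precursor was highest in solvent-treated mites at 48 h, the GABA-like gene in curcumin-treated mites at 24 h, and the receptor gene had reads in curcumin-treated mites only. On the RPKM scale, which divides by the length of the gene model, the GABA-like gene was above the SIFa precursor in 7 of 8 libraries. The exception was replicate 1 of the solvent mites at 48 h. Whether RPKM makes the levels of models this short comparable was not tested. The receptor gene was below both others in 7 of 8 libraries, the exception being replicate 1 of the curcumin mites at 48 h, where the SIFa precursor was lower. Among the genes listed in a library, the share with a lower RPKM lay between 4.11% and 75.3% for the SIFa precursor and between 39.4% and 89.5% for the GABA-like gene. For the receptor gene it lay between 18.6% and 44.9% in the 4 curcumin libraries.

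**Figure D1:**
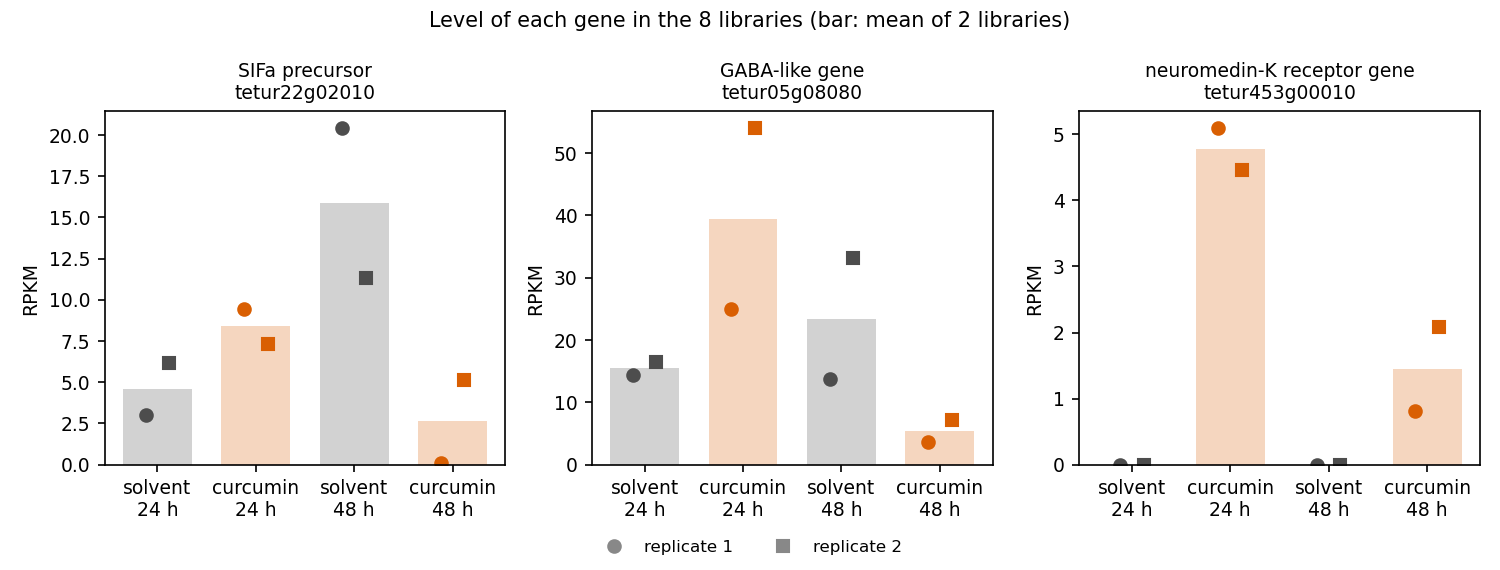
Level of the SIFa precursor, the GABA-like gene and the receptor gene in each of the 8 libraries, in RPKM on separate vertical axes, with solvent in grey and curcumin in orange. Points are libraries and bars are means of 2 libraries. The SIFa precursor reached 20.4 RPKM in a solvent library at 48 h, the GABA-like gene 54.0 RPKM in a curcumin library at 24 h, and the receptor gene is at 0 in the 4 solvent libraries.

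After curcumin at 24 h, both curcumin libraries were above both solvent libraries for all 3 genes, a pattern that 20.2% of the genes tested showed. At 48 h both curcumin libraries were below both solvent libraries for the SIFa precursor and the GABA-like gene, as for 17.3% of the genes tested, and above them for the receptor gene, as for 15.8%. Higher levels at both time points, as for the receptor gene, were found for 2.81%. None of the 3 genes passed an FDR of 0.05 by edgeR's quasi-likelihood test in any of the 6 comparisons. Of all genes tested, 0% passed after curcumin at 24 h and 0.18% at 48 h, 0% for the difference between both time points and 0.0491% for their average. With time, 0.188% passed from 24 h to 48 h in solvent and 0.425% in curcumin. Many of these calls depended on the shortest gene models. Without those models, 4 genes passed after curcumin at 48 h against 22 with them, and 19 against 52 over time in curcumin. The counts of 0 over all genes compare with 903 genes at an unadjusted p under 0.05 at 24 h and 991 for the difference. DESeq2 called 39 genes at 24 h and 55 for the difference. Limma on log2(RPKM + 1) called 0 and 23, and limma on log2(RPKM + 0.1) called 1 and 13. An unadjusted p under 0.05 was found for 2 of the 3 genes at 24 h and for all 3 at 48 h, against 7.39% and 7.84% of all genes tested. The receptor gene, counted at both times, had passed the filter only through curcumin at 24 h, so these counts support nothing. The comparisons share libraries, since each group enters 1 comparison of treatment and 1 of time, and also the difference and the average.

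The SIFa precursor, the peptide ligand among the 3 genes, had few reads in every library. At 24 h the solvent libraries held 6.34 and 13.2 reads, or 3.03 and 6.19 RPKM, with a mean of 4.61 ± 2.23 RPKM (SD, n = 2). The curcumin libraries at 24 h held 19.3 and 14.6 reads, or 9.46 and 7.33 RPKM, with a mean of 8.39 ± 1.51 RPKM (SD, n = 2). Both curcumin libraries were the higher ones, and the gap between the nearest libraries of both groups was narrower than the gap between the solvent replicates. At that time the fitted log2 fold change came to 0.91 (SE 0.84, 95% interval -0.98 to 2.80), with an adjusted p of 0.836. It was 0.47 without replicate 1 and 1.55 without replicate 2 of the solvent mites. The change of the SIFa precursor at 24 h was thus not separated from 0 at this depth.

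At 48 h the solvent libraries held 39.2 and 22.5 reads of the SIFa precursor, or 20.4 and 11.3 RPKM, with a mean of 15.9 ± 6.42 RPKM (SD, n = 2). The curcumin libraries held 0.243 and 10.8 reads, or 0.119 and 5.17 RPKM, with a mean of 2.64 ± 3.57 RPKM (SD, n = 2). Both curcumin libraries were below both solvent libraries, and replicate 1 of the curcumin mites had nearly no reads. The estimate of 0.243 reads was rounded to 0 for the test, and a count of 0 allows up to 3 reads, which covers counting error only. The fitted log2 fold change at 48 h was -2.58 (SE 0.87, 95% interval -4.53 to -0.62), which is 5.97-fold lower after curcumin, with an unadjusted p of 0.0151 and an adjusted p of 0.506 by edgeR. Replicate 1 of the curcumin mites set much of this size. Leaving it out gave -1.63 and an adjusted p of 0.772. Without replicate 2 instead, the group rounded to 0 reads, and the level was 10.6-fold lower than in solvent, taking 3 reads as the floor. This bound leaves out counting error of the solvent reads.

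The time courses of the SIFa precursor in solvent and in curcumin had opposite signs. Higher levels with time in solvent and lower levels in curcumin, without overlap in either, were found for 3.21% of the genes tested. In solvent both 48 h libraries were above both 24 h libraries, as for 15.9% of the genes tested, with a log2 fold change of 1.87 (SE 0.81, 95% interval 0.05 to 3.69) and an adjusted p of 0.491. In curcumin both 48 h libraries were below both 24 h libraries, as for 27.2% of the genes tested, with a log2 fold change of -1.62 (SE 0.91, 95% interval -3.65 to 0.42) and an adjusted p of 0.502. Without replicate 1 of the curcumin mites at 48 h this change with time was -0.67. Solvent at 48 h, the highest group, thus did not overlap with curcumin at 24 h, nor that group with solvent at 24 h, whereas solvent at 24 h and curcumin at 48 h overlapped. The difference between the curcumin effects at 48 h and 24 h was -3.49 on the log2 scale (SE 1.21, 95% interval -6.21 to -0.76), with an unadjusted p of 0.0176 and an adjusted p of 0.499. Without replicate 1 of the curcumin mites at 48 h it was -2.54.

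The GABA-like gene had the most reads of the 3. At 24 h the solvent libraries held 37.7 and 44.2 reads, or 14.4 and 16.5 RPKM, with a mean of 15.4 ± 1.53 RPKM (SD, n = 2). The curcumin libraries at 24 h held 63.9 and 135.1 reads, or 24.9 and 54.0 RPKM, with a mean of 39.4 ± 20.5 RPKM (SD, n = 2). Both curcumin libraries were the higher ones, but they differed from each other by 2.17-fold, against 1.15-fold between the solvent replicates. The fitted log2 fold change at 24 h was 1.36 (SE 0.46, 95% interval 0.31 to 2.40), or 2.56-fold, with an unadjusted p of 0.0162 and an adjusted p of 0.593. It was 0.71 without replicate 2 of the curcumin mites and 1.81 without replicate 1.

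At 48 h the solvent libraries held 33.2 and 82.8 reads of the GABA-like gene, or 13.8 and 33.1 RPKM, with a mean of 23.4 ± 13.7 RPKM (SD, n = 2). The curcumin libraries held 9.49 and 18.7 reads, or 3.69 and 7.10 RPKM, with a mean of 5.39 ± 2.41 RPKM (SD, n = 2). Both curcumin libraries were below both solvent libraries, and they were the 2 lowest of all 8. The fitted log2 fold change at 48 h was -2.10 (SE 0.54, 95% interval -3.32 to -0.89), or 4.29-fold lower, with an unadjusted p of 0.0034 and an adjusted p of 0.297 by edgeR. Of the genes tested, 1.11% had a smaller p. DESeq2 gave nearly the same log2 fold change, -2.11, with an adjusted p of 0.0342, and called 0.728% of the genes, so the call depended on the tool. Leaving out replicate 2 of solvent, the higher one, gave -1.38 and an adjusted p of 0.594.

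From 24 h to 48 h, the GABA-like gene had levels that overlapped between both solvent groups, with a log2 fold change of 0.64 (SE 0.48, 95% interval -0.43 to 1.71) and an adjusted p of 0.684. Without replicate 2 of the solvent mites at 48 h the sign of that value turned, to -0.07. In curcumin-treated mites both 48 h libraries were below both 24 h libraries, with a log2 fold change of -2.82 (SE 0.53, 95% interval -4.01 to -1.63), or 7.06-fold lower. Its unadjusted p was 0.000399, smaller than for all but 0.622% of the genes tested, and its adjusted p of 0.0634 was the lowest of any of the 3 genes in any comparison. DESeq2 gave -2.83 with an adjusted p of 0.000159, and called 1.61% of the genes. In the fit of the 4 groups to all 8 libraries edgeR did not call this change, but it did so without replicate 1 or replicate 2 of the solvent mites at 48 h, which are not part of the comparison, at an adjusted p of 0.0473 and 0.0462. Leaving out replicate 2 of curcumin at 24 h gave -2.17 and an adjusted p of 0.326.

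The fitted curcumin effect on the GABA-like gene was above 0 at 24 h and below 0 at 48 h. The libraries did not overlap at either time. Because the study had picked this gene from these libraries at both times, its signs and tests are a description only. That order, higher at 24 h and lower at 48 h, was found for 4.25% of the genes tested, the SIFa precursor among them. The difference between the effects at 48 h and 24 h was -3.46 on the log2 scale (SE 0.71, 95% interval -5.06 to -1.85), with an unadjusted p of 0.000797. Its adjusted p was 0.294 by edgeR and 0.00489 by DESeq2, which called 0.45% of the genes for this difference. Over both time points together the average effect was nearer to 0, at -0.37 (SE 0.36, 95% interval -1.18 to 0.43) for the GABA-like gene and -0.84 (SE 0.61, 95% interval -2.21 to 0.54) for the SIFa precursor. These averages depended on single libraries. For the GABA-like gene the average lay between -0.69, without replicate 2 of curcumin at 24 h, and -0.0093, without replicate 2 of solvent at 48 h. For the SIFa precursor it was -0.36 without replicate 1 of curcumin at 48 h.

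**Figure D2:**
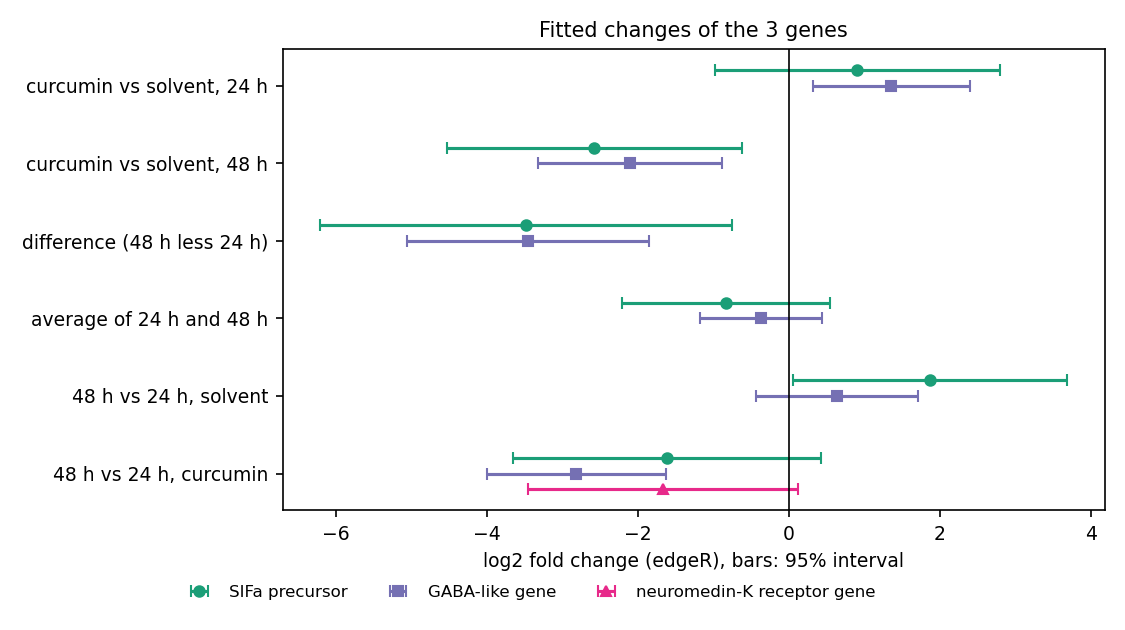
Fitted log2 fold change of the 3 genes in the 6 comparisons, on the horizontal axis, with bars for the 95% interval from edgeR. Both the SIFa precursor and the GABA-like gene lie right of 0 after curcumin at 24 h and left of 0 at 48 h. The receptor gene is drawn for curcumin-treated mites over time only, since both solvent groups were at 0 reads.

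The receptor gene, tetur453g00010, had 0 reads in all 4 solvent libraries. A count of 0 in a solvent library allows a level of up to 3 reads, which is between 0.353 and 0.373 CPM, or between 1.02 and 1.13 RPKM for this gene. At 24 h the curcumin libraries held 14.4 and 12.3 reads, or 5.09 and 4.46 RPKM, with a mean of 4.77 ± 0.448 RPKM (SD, n = 2). Both replicates were thus close to each other and above the limit that 0 reads allow. At 48 h the curcumin libraries held 2.32 and 6.08 reads, or 0.816 and 2.09 RPKM, with a mean of 1.45 ± 0.90 RPKM (SD, n = 2). Replicate 1 at 48 h was below the level that 3 reads give, so at this depth that library by itself was not separated from a library with 0 reads.

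Set against a floor of 3 reads over the solvent group, the receptor gene was 8.95-fold higher after curcumin at 24 h and 2.66-fold higher at 48 h. These bounds cover counting error in the solvent group only, and leave out that of the curcumin reads. Without replicate 1 of the curcumin mites the bound at 48 h was 3.78-fold. Without replicate 2 it was 1.5-fold, which rests on the library not separated from 0 reads. At 24 h it was 8.34-fold without replicate 1 and 9.54-fold without replicate 2, and over both time points together 11.4-fold. In the edgeR fit its adjusted p came to 0.474 for 24 h, 0.547 for 48 h and 0.271 for the average, and its unadjusted p to 0.00155, 0.0194 and 0.000866. The receptor gene passed the filter on low counts only through the curcumin libraries at 24 h, the group in which it was highest, so these p-values are a description and do not support a difference. Limma gave an adjusted p for the average of 0.0153 on log2(RPKM + 1) and of 0.0164 on log2(RPKM + 0.1). On these scales 0.25% and 0.133% of the genes passed, so this call also depended on the tool. For 24 h and for the average, DESeq2 gave the receptor gene no adjusted p.

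Reads in every curcumin library and in no solvent library were rare among all genes. The receptor gene was 1 of 3 such genes among 15764, or 0.019%, and it had the most reads of them, 35.1 over the 4 curcumin libraries. The others, tetur01g06280 and tetur11g02330, were singled out after their values were seen and had 8.69 and 2.96 reads in all. The reverse pattern, reads in every solvent library and in no curcumin library, was found for 6 genes, or 0.0381%. The study had picked the receptor gene from these libraries for its difference at 24 h, so its place among the 3 genes is a description only. In curcumin-treated mites, the receptor gene had a lower level at 48 h than at 24 h in both libraries, with a log2 fold change of -1.67 (SE 0.77, 95% interval -3.46 to 0.12) and an adjusted p of 0.426. It was -1.14 without replicate 1 and -2.57 without replicate 2 of the curcumin mites at 48 h.

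An exact permutation test of the mean log2(CPM + 1) was run for each gene over both time points, with the labels exchanged within a time point. Its 36 regroupings cannot give a two-sided p below 0.0556, so the test could not reach 0.05. The receptor gene had that smallest p, with a mean difference of 0.97 on the log2 scale, and all 4 curcumin libraries above all 4 solvent libraries. Because the study had picked this gene from these libraries for its difference at 24 h, that p is a description and supports no difference. The SIFa precursor had a difference of -0.56 and an exact p of 0.444. For the GABA-like gene the difference was -0.24 with an exact p of 0.722.

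The gap between replicates was above the median of all genes in every group in which these genes had reads. It was barely above for the receptor gene in curcumin at 24 h, where 50.21% of the genes had a smaller gap. The same held for the GABA-like gene in solvent at 24 h, with 52.85%. Over all genes tested, the higher replicate was a median of 1.14 to 1.2 times the lower one, depending on the group. For the SIFa precursor the ratio in curcumin at 48 h was 43.5, which was above that of 99.99% of the genes, and in the other groups it lay between 1.29 and 2.04. For the GABA-like gene it lay between 1.15 and 2.40. For the receptor gene it was 1.14 at 24 h and 2.56 at 48 h. The biological coefficient of variation, which is the relative spread between replicates beyond counting noise in the fit, was 0.461 for the SIFa precursor, 0.318 for the GABA-like gene and 0.322 for the receptor gene, against a common value of 0.142. Genes with few reads had wider spreads in general. The SIFa precursor and the GABA-like gene lay above the trend at their level, 0.318 and 0.21, and the receptor gene lay below it, at 0.369. The value of the receptor gene rests on the curcumin groups, since 0 reads in solvent tell nothing of its spread. Its ratio in curcumin at 48 h was above that of 96.26% of the genes.

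**Figure D3:**
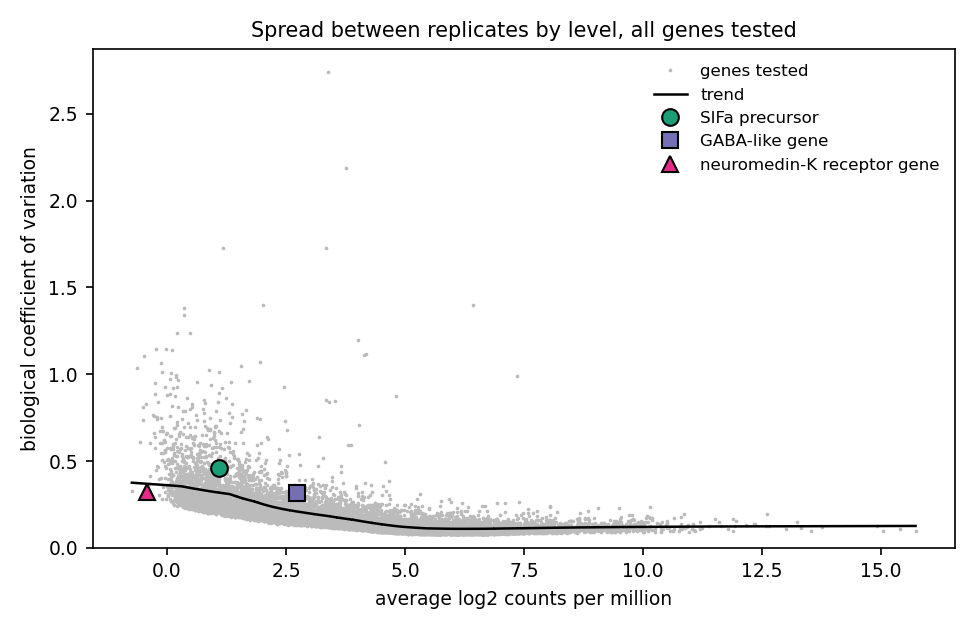
Biological coefficient of variation between replicates (vertical axis) against the average level in log2 CPM (horizontal axis) for the 12227 genes tested, in grey, with the fitted trend as a line. The SIFa precursor at 0.461 and the GABA-like gene at 0.318 lie above the trend, and the receptor gene at 0.322 lies below it. The value of the receptor gene rests on the curcumin libraries, since its solvent libraries had no reads.

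In curcumin-treated mites at 48 h, replicate 1 was below replicate 2 for all 3 genes. Gene models under 250 bp took 0.86% of the reads in replicate 1 and 1.03% in replicate 2, and between 0.882% and 1.04% in the 6 other libraries. Whether this share bears on the levels in replicate 1 was not tested. In solvent-treated mites at 48 h both genes with reads went apart, with the SIFa precursor higher in replicate 1 and the GABA-like gene higher in replicate 2.

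**Figure D4:**
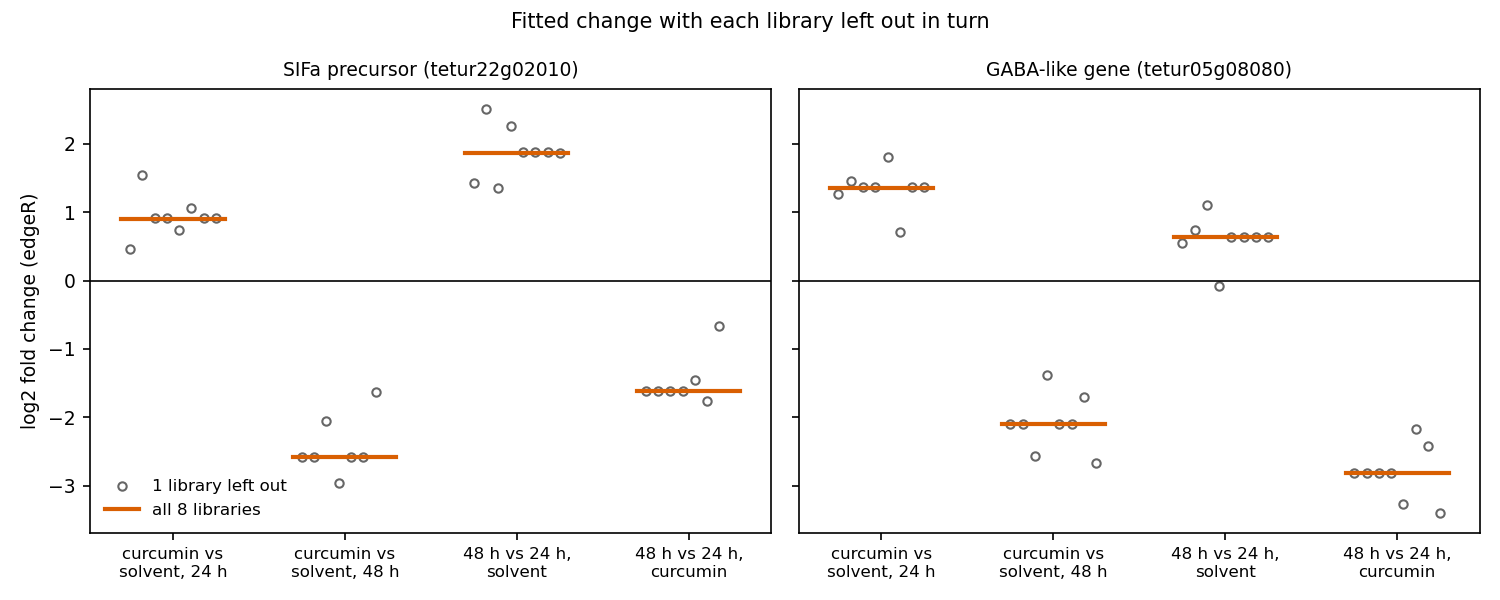
Fitted log2 fold change (vertical axis) of the SIFa precursor and the GABA-like gene in 4 comparisons, with all 8 libraries as a line and with each library left out in turn as open circles. The sign holds in every case drawn except for the GABA-like gene from 24 h to 48 h in solvent, at -0.07 without replicate 2 of solvent at 48 h. The SIFa precursor without replicate 2 of curcumin at 48 h is not drawn where that group is compared, since the group then rounds to 0 reads.

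The pattern of each gene over the 8 libraries was compared with that of 12153 genes by Pearson's r on the log2(CPM + 1) scale, as a description over libraries that form 4 groups. The genes most like the SIFa precursor were tetur10g00350 (r of 0.978), tetur05g03830 (0.943) and tetur07g01110 (0.934). Tetur10g00350 had 7.10 and 4.19 RPKM in solvent at 48 h and 0.859 and 3.34 RPKM in curcumin at 48 h, so its replicates in curcumin at 48 h went apart in the same order as those of the SIFa precursor. For the GABA-like gene they were tetur08g05780 (0.964), tetur21g00720 (0.958) and tetur55g00040 (0.954), whose log2 fold changes after curcumin at 48 h, between -0.82 and -0.44, were smaller than that of the GABA-like gene. For the receptor gene they were tetur04g03000 (0.948), tetur37g00810 (0.947) and tetur26g00560 (0.930), all of which had reads in solvent. None of these 9 genes passed an FDR of 0.05 by edgeR in any of the comparisons. The lists were not stable, since on the log2(RPKM + 0.1) scale 1, 2 and 0 of the 3 genes stayed the same, and by Spearman's rho 0, 0 and 1. Among the 3 genes themselves, r was 0.55 between the SIFa precursor and the GABA-like gene, -0.02 between the SIFa precursor and the receptor gene, and 0.33 between the GABA-like gene and the receptor gene.

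Of the other genes that the study names, 9 were taken here, all picked by the study from the same libraries. They were taken for signal transduction, for terms shared with the 3 genes, for a like change of direction, or, for tetur25g00970, as an ion channel. Of these, 8 passed the filter on low counts, and the exception was the phospholipase A2 gene tetur05g07400, an enzyme that frees fatty acids from membrane lipids. At 24 h, 0 of the 8 passed an FDR of 0.05 after curcumin, 3 had a fitted value above 0 and 5 below, and the median log2 fold change was -0.68 against -0.01 over all genes. At 48 h, 1 passed, in the lower direction, and the median was -0.41 against 0.00. That gene was vitellogenin 1, tetur39g00730, with a log2 fold change of -2.71 and an adjusted p of 0.0469, close to the limit. With the shortest gene models left out, a setting chosen after seeing the data, edgeR called 4 of 12193 genes at 48 h. Whether vitellogenin 1 stayed among the genes called was not recorded. Its levels were 2.03 and 1.59 RPKM in solvent and 6.21 and 9.66 RPKM in curcumin at 24 h. At 48 h they were 23.9 and 10.9 RPKM in solvent and 2.69 and 2.69 RPKM in curcumin. As for the SIFa precursor and the GABA-like gene, its curcumin libraries were above the solvent libraries at 24 h and below them at 48 h. The Ras GTPase gene tetur08g03710 had the same order, at 0 to 19.1 reads in a library. Whether the level of this vitellogenin 1 model, low in solvent at 24 h, reports the reproductive state of the mites was not tested. Its part in the levels of the 3 genes was not tested either.

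Of the other genes named beside them, tetur02g00040, listed with the GABA-like gene under transmembrane transporter activity, had the reverse pattern of the receptor gene. Its solvent libraries held 14.0 and 11.8 reads at 24 h and 30.6 and 22.3 reads at 48 h, and all 4 curcumin libraries held 0. For 24 h and 48 h, edgeR gave adjusted p of 0.373 and 0.0549. The gene tetur01g05790, listed with the receptor gene under cell surface receptor signaling, had a log2 fold change of -1.05 (SE 0.34) at 24 h and 0.73 (SE 0.34) at 48 h, with adjusted p of 0.59 and 0.648. The phospholipase C gene tetur05g03410, whose product makes second messengers downstream of many G protein-coupled receptors, had log2 fold changes of -0.30 (SE 0.32) and 1.51 (SE 0.33), with adjusted p of 0.861 and 0.207. Calmodulin, tetur04g01900, a calcium sensor, had 46.0 and 12.7 reads in solvent and 0 and 77.9 reads in curcumin at 24 h, so its groups overlapped. At 48 h it had 0.506 and 0 reads in solvent and 54.1 and 13.6 reads in curcumin, without overlap, with an adjusted p of 0.596.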

How the data were processed

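RNA-Seq libraries were made of 4 groups of mites with 2 biological replicates each. By the methods, polyA RNA was sequenced as single-end Ion Proton reads (the labels mention standard Illumina protocols), low-quality and adaptor reads were removed, and T-Map placed the reads on the genome of T. urticae, a sister species. Per the file headers, the authors deposited for each gene an expected count (the estimated number of reads, not normalized and not whole) and an RPKM, normalized for exon length and sequencing depth. The tool that assigned reads to genes and the gene model release were not given in the sources used here. Tables list genes above 0, so a gene that a table lacks was set to 0. Worked back from the values, 17 bp are taken off a model's length in the RPKM. Each of the 8 libraries has its own table, and 0 other columns of values per sample were present. No other gene had the same reads as any of the 3 genes in all libraries.

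Reads were rounded to whole numbers, and edgeR 4.0.16 was run in R 4.3.3 (filterByExpr with a minimum count of 10, TMM, robust quasi-likelihood fit, 4 groups, all 8 libraries, Benjamini-Hochberg adjustment over 12227 genes), and called at an FDR of 0.05. At the stricter limits of the study's methods (FDR 0.001, absolute log2 ratio 1) the 6 comparisons had 0 calls by edgeR, with 862 to 1561 genes at an unadjusted p under 0.05. Standard errors were worked out from the F statistic. A group at 0 reads was set to 3 reads over the group for bounds, and its fitted fold change is not printed. The fits were first tested on simulated data. Python 3.11.15, pandas 2.3.3, numpy 2.4.6 and scipy 1.17.1 gave the other values. Across genes, on log2 RPKM values, Pearson's r was 0.977 to 0.983 between replicates and 0.965 to 0.984 between groups, where genes are not independent replicates.

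Alternatives were DESeq2 1.42.0, library size only, no filter, only the libraries of a comparison, a block for the replicate number, limma 3.58.1 for 12803 genes on log2(RPKM + 1) and log2(RPKM + 0.1), an exact binomial test on summed reads, and each library left out. Models over 145 bp only was chosen after seeing the data. The genes named are the 3 genes, the 3 most alike in pattern to each, and 9 of the other genes that the study names, plus those singled out in the text. The genes and lists were chosen with earlier results of these data known. Lists found by the words in gene names, and the quantitative PCR, were not used here.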

Additional observations from a re-analysis of the deposited data

Results flagged for a closer look

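The SIFa precursor was marked because its 2 curcumin libraries lay above both solvent libraries at 24 h and below both at 48 h, and the change after curcumin at 48 h less that at 24 h was -3.49 on the log2 scale. The same libraries read over time gave the same value: the change from 24 h to 48 h was 1.87 in solvent and -1.62 in curcumin, a difference of -3.49. The edgeR test of that difference gave an adjusted p of 0.499, so it failed the correction, and the range of the adjusted p over the alternatives was 0.319 to 0.836. Libraries set apart as higher at 24 h and lower at 48 h after curcumin were found for 4.25% of the genes tested, and as higher with time in solvent and lower with time in curcumin for 3.21%; the reverse orders are not in these shares. The GABA-like gene was marked for the same pattern across time points, with a difference of -3.46 and an adjusted p of 0.294 by edgeR, and a range of 0.00489 to 0.736 over the alternatives.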

How the results depend on the processing

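For the 3 genes, 16 results were recomputed under 259 settings in all, of which 237 kept the direction and the side of the threshold, 18 passed the threshold where the reported test did not, 0 lost a call and 1 changed sign. For the other 3 DESeq2 gave no adjusted p, so the side of the threshold is unknown. DESeq2 also gave none for the receptor gene at 24 h and for its average, which were left out of the settings counted. The exact test on summed reads, which ignores the spread between replicates and called 28.2% to 37% of all genes, called the SIFa precursor at 48 h (-2.51) and over time in solvent (1.76) and curcumin (-1.59). It called the GABA-like gene at 24 h (1.28) and 48 h (-2.10) and over time in solvent (0.57) and curcumin (-2.81), and the receptor gene at 24 h (adjusted p of 1.81e-07), at 48 h (0.0312) and over time in curcumin (-1.64). DESeq2 called the GABA-like gene at 48 h (-2.11), for the difference (-3.48) and over time in curcumin (-2.83). Limma called the average of the receptor gene at an adjusted p of 0.0153 and 0.0164. With each library left out, the GABA-like gene over time ranged from -0.075 (without replicate 2 of solvent at 48 h, the reversed sign) to 1.10 in solvent and from -3.40 to -2.17 in curcumin. The replicate block called the GABA-like gene over time in curcumin (-2.81, adjusted p of 0.0154) and changed no other call. At 48 h the adjusted p of the GABA-like gene with the block was 0.0737. This gene had more reads in replicate 2 than in replicate 1 in each of the 4 groups. Deviations of samples with the same replicate number correlated at -0.07 to 0.20 over 6 pairs of groups, 3 of them over 0.1. By the methods, the dishes of a replicate came from an independent experiment. The methods do not say whether a number marks the same experiment in every group. The numbers were not taken to pair the libraries in the main fit. With the block, 72 genes passed an FDR of 0.05 over time in curcumin against 52 without it. Calls over all genes by edgeR at 24 h, at 48 h, for the difference, for the average and over time in solvent and in curcumin numbered 0, 22, 0, 6, 23 and 52, and by DESeq2 39, 89, 55, 56, 122 and 197. With the shortest gene models left out, the edgeR calls at 48 h fell from 22 to 4, and those over time in curcumin from 52 to 19. Over all settings but the summed reads and libraries left out the calls lay between 0 and 39, 4 and 89, 0 and 55, 5 and 56, 1 and 122, and 19 and 197. With libraries left out they lay between 0 and 3, 5 and 18, 0 and 3, 4 and 8, 0 and 29, and 0 and 64. Where a setting leaves 1 library in a group, that library is assumed to vary like the other groups. The causes of these differences were not tested. The SIFa precursor had 0.243 to 39.2 reads and the receptor gene 0 to 14.4 reads in a library, which limits the precision of both. The receptor gene's difference between time points and its time course in solvent are not printed, since solvent was at 0.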
